A study of Mus musculus with 4 samples.

Results

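Mouse colonic epithelium was profiled on 4 expression arrays, and 48 genes for DNA methylation, polycomb and chromatin-modifying proteins were followed across them. The genes were taken from a fixed list in 12 classes. Of these, 47 had at least 1 probe set named by that gene alone in the platform annotation, out of 18194 such genes on the array, and the probe set with the highest 4-array mean stood for the gene. Suv39h1 had no probe set in the annotation used here. The label "enzymes" does not cover the whole list: the methyl-CpG-binding domain proteins, the HP1 proteins and several polycomb subunits bind chromatin or scaffold a complex and carry no catalytic activity of their own.

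All mice were male. GFPlow and GFPhigh cells came from H2B-GFP mice, which carry a histone H2B fused to green fluorescent protein under a tetracycline-responsive element. Both fractions had 7 days of doxycycline labelling and then 2 days without it, so cells that divided diluted the label. GFPlow are the proliferating and GFPhigh the non-proliferating crypt epithelial cells sorted from the same kind of isolated crypts. Dox plus and Dox minus are crypts of mice carrying doxycycline-inducible β-catenin, the transcriptional effector of Wnt signalling. For 5 days the Dox plus mice had doxycycline in their water at 2.0 mg/ml, whereas Dox minus mice were untreated, so the drug and the induced protein cannot be told apart. The sources used here do not give the age or strain of the mice, how many mice each array stands for, what drives the transactivator, or the form of β-catenin.

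DNA methyltransferases copy or add methyl groups on cytosine, and TET dioxygenases oxidise them as a step towards removal. Polycomb complex PRC2 methylates histone H3 and PRC1 ubiquitinates histone H2A, and both keep developmental genes silent. Acetyltransferases and deacetylases, lysine and arginine methyltransferases and demethylases set the remaining histone marks, while remodellers move nucleosomes with ATP. In the intestinal crypt, dividing cells at the base must copy these marks at each S phase before their daughters differentiate on the way up.

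Each group was 1 array, so no difference has a replicate check and none was tested. Values are log2 expression. A gene was called measured in a pair when at least 1 of its arrays reached 5, values under 5 were set to 5, and a difference of 1 or more (2-fold) was counted. These are levels in bulk RNA: fewer cells of a type and less RNA per cell cannot be told apart. Pearson's r over all probe sets was 0.985 within each pair and 0.930 to 0.941 across pairs, so differences were taken only within a pair. All 10 epithelial markers, among them Epcam, Cdh1 and Vil1, lay at or above 5 on all 4 arrays. None of the 6 smooth muscle and 6 endothelial markers did on any array, and T cell markers reached it for 1 to 2 of 6, with Cd3e under 5 on every array. Of 9 myeloid markers, 4 reached it in GFPlow, 2 in GFPhigh and 5 in each of Dox plus and Dox minus. Ptprc did so in Dox plus (6.58) and Dox minus (7.19) only. The 3′ minus 5′ difference of the actin control probe sets, a sign of RNA integrity and labelling, was 1.17 in GFPlow and 1.11 in GFPhigh, and 0.76 in Dox plus and 0.80 in Dox minus. That of the Gapdh control did not set the pairs apart. It was -0.14 in GFPlow and -0.04 in GFPhigh, and -0.12 in Dox plus and -0.02 in Dox minus.

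In dividing crypt cells the methylation-copying genes Dnmt1 and Hells, the arginine methyltransferase genes Prmt1 and Prmt5, Mbd3 and Hdac2 were higher by 2-fold or more, and Tet2 was 2.17-fold lower. After doxycycline-induced β-catenin, Prmt1, Prmt5 and Mbd3 were again higher by 2-fold or more and Tet2 2.11-fold lower, whereas Dnmt1 and Hells differed by 1.36-fold and 1.51-fold. Most of the list stayed within 2-fold in both pairs. Of 42 members measured in the GFP pair, 6 (14.3%) reached 2-fold higher in GFPlow, against 8.81% of all 9381 measured genes, and 1 (2.38%) at least 2-fold lower, against 4.3%. Over all genes 826 were higher and 403 lower in GFPlow, a split that a loess correction turned to 673 and 543. Of 43 measured in the Dox pair, 3 (6.98%) reached 2-fold higher in Dox plus, against 6.93% of 9537 genes, and 1 (2.33%) lower, against 5.35%. The Dox share of higher members is near that of the whole array. These shares depended on the choice of probe sets: without those whose suffix marks possible matches to several transcripts, 2 of 33 members were higher in GFPlow, against 8.74% of genes, and 4 of 35 in Dox plus, against 7.48%. At 1.5-fold, 10 members were higher in GFPlow (background 18.4%) and 3 lower (12.6%), and 8 were higher in Dox plus (17.4%) and 2 lower (11.7%). The median difference of the members was 0.12 in the GFP and 0.12 in the Dox pair, against 0.04 and 0.06 over all measured genes. By these medians the list as a whole lay close to the array, while single genes reached 2-fold. No class was tested.

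**Figure D1:**
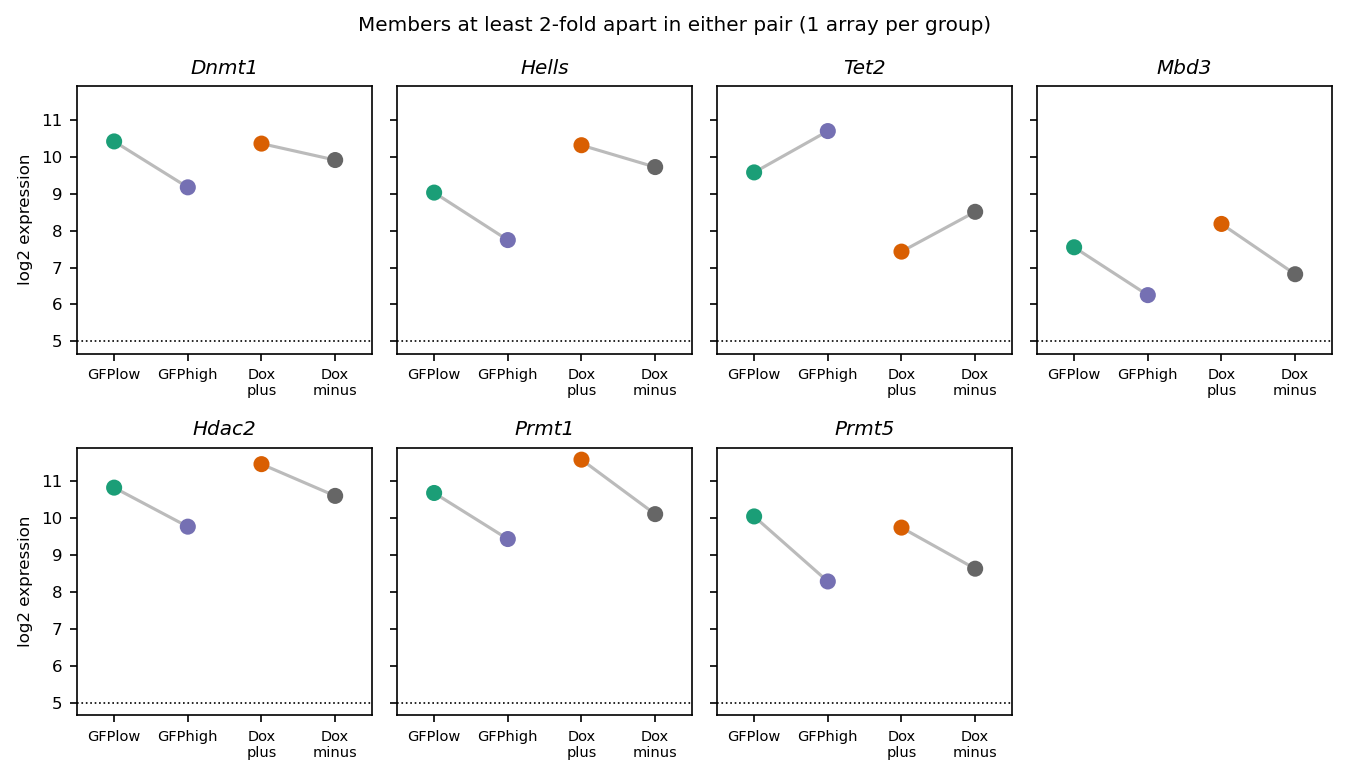
Log2 expression (y axis) on each array (x axis, 1 point per array) of the 7 members at least 2-fold apart in either pair. Grey lines join the arrays of a pair and the dotted line is the limit of 5. Tet2 is lower, and the other 6 are higher, in GFPlow and in Dox plus than in the other array of the pair.

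The promoters of Prmt1, Prmt5, Mbd3 and Tet2 are shown because these 4 genes were past 2-fold in both pairs. Dnmt1 is shown as the maintenance methyltransferase, with the only 1 of its 3 annotated starts whose window held an E2F sequence. Each window runs from 250 bases before to 50 bases after the annotated start, 5′ to 3′ on the gene's strand (RefSeq, GRCm38.p6). Capitals mark matches, on either strand, to E2F sequences (TTTCGCGC, TTTGGCGC or TTCCCGCC), the E-box CACGTG, the CCAAT box and the TCF/LEF sequences CTTTGAT or CTTTGAA.
Prmt1, chr7:44986371-44986670, minus strand: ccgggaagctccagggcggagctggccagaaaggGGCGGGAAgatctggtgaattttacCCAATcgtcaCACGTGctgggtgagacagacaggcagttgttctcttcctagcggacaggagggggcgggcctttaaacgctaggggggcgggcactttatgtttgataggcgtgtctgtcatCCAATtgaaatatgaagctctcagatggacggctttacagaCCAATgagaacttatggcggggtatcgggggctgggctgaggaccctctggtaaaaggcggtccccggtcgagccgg
Prmt5, chr14:54517421-54517720, minus strand: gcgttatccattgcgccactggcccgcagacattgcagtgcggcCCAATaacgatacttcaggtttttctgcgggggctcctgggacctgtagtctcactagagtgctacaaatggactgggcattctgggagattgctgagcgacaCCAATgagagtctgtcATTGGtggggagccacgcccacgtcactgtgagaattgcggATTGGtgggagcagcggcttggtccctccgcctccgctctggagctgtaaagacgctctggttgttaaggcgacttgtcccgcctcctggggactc
Mbd3, chr10:80399482-80399781, minus strand: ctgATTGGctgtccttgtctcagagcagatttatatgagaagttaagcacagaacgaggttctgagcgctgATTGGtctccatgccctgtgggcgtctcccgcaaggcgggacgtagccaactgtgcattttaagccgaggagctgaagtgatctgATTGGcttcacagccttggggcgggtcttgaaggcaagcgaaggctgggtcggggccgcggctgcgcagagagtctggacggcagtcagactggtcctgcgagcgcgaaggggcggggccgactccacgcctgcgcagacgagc
Tet2, chr3:133544341-133544640, minus strand: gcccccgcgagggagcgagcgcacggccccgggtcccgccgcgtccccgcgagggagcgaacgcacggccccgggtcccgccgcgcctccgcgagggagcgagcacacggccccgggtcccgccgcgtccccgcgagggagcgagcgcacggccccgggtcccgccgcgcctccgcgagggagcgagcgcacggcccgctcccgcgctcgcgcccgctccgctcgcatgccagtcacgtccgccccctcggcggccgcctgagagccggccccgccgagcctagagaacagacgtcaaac
Dnmt1, chr9:20952574-20952873, minus strand: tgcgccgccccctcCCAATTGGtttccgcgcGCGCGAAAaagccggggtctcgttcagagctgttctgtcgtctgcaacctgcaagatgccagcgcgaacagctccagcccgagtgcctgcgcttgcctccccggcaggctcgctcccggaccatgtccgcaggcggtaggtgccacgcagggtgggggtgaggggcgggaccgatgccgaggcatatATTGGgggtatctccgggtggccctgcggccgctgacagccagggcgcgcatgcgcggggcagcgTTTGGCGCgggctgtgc

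The windows of Prmt1, Prmt5 and Mbd3 held 3, 4 and 3 CCAAT boxes, and that of Tet2 held none of the sequences searched. Windows with 3 or more CCAAT boxes made up 12.2% of the 49 windows of measured members and 5.07% of the 10406 windows of all measured genes, a limit chosen after the matches were seen. Each annotated start counts as a window, and windows of 1 gene can overlap. The 49 windows come from 37 genes and the 10406 from 8106. Dnmt1 is counted more than 1 time among the 6 members' windows with 3 or more. An E2F sequence stood in 10.2% of the members' windows and in 5.59% of all measured genes' windows, a CACGTG E-box in 16.3% and 10.2%, at least 1 CCAAT box in 40.8% and 37.5%, and a TCF/LEF sequence in 4.08% and 5.97%. Tet2 had 57 CG dinucleotides in its 300 bases, the most of all the members' windows, while the members' median was 29 and that of measured genes 21. In the Dnmt1 window 2 CCAAT boxes, 1 on each strand, overlap. Of the other Dnmt1 windows, 1 held 5 CCAAT boxes and 1 TCF/LEF sequence, and 1 held none of the sequences. These are matches of letters and say nothing of binding.

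Genes that copy DNA methylation were higher in GFPlow. Dnmt1, which methylates the new strand after replication, read 10.42 in GFPlow and 9.17 in GFPhigh, a difference of 1.24 (2.37-fold). It read 10.36 in Dox plus against 9.91 in Dox minus, which differ by 0.44. Its other measured probe sets differed by 1.41 and by at least 0.80 in the GFP and 0.26 in the Dox pair, so every measured probe set was higher in GFPlow, and both measured in the Dox pair were higher in Dox plus. Hells, a remodeller that opens nucleosomal DNA for the methyltransferases, read 9.03 in GFPlow and 7.74 in GFPhigh, a difference of 1.29. In the Dox pair it read 10.31 in Dox plus against 9.72 in Dox minus, which differ by 0.59, with 0.64 in a second probe set. The de novo methyltransferase Dnmt3a differed by 0.19 in the GFP and -0.21 in the Dox pair, and its 5 probe sets ranged from -0.15 to at least 0.88 in the GFP pair. The highest is a bound, from a probe set that read 5.88 in GFPlow and 2.87 in GFPhigh. The strongest probe set of the other de novo enzyme, Dnmt3b, stayed between 3.46 and 3.95 on all arrays and was not measured. By the chosen probe sets, Dnmt1 was past 2-fold in the sorted cells and Dnmt3a was not.

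Of 10 listed partners of DNA methylation, 6 were measured in each pair. Uhrf1, which recruits Dnmt1 to hemimethylated DNA, read 10.03 in GFPlow and 7.17 in GFPhigh, a difference of 2.86, and 10.46 in Dox plus against 9.74 in Dox minus, which differ by 0.72. It was the only partner past 2-fold in the GFP pair (16.7% of 6, against 8.81% of all genes higher). None was in the Dox pair, against 6.93% of all genes higher and 5.35% lower. The median of the partners was 0.00 in the GFP and -0.23 in the Dox pair. Gadd45a, a stress-induced protein linked to demethylation, differed by -0.66 in the GFP and -0.53 in the Dox pair.

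Of the 3 genes of oxidative demethylation, Tet2 was past 2-fold. It read 9.58 in GFPlow and 10.70 in GFPhigh, a difference of -1.12. Its level was 7.43 in Dox plus against 8.51 in Dox minus, which differ by -1.08. Its second probe set gave -0.85 and -0.89, lower in GFPlow and in Dox plus as well but within 2-fold, and the mean of both probe sets was -0.98 in each pair. Tet3 stood close to the limit, at 5.14 in GFPlow, 5.46 in GFPhigh, 5.06 in Dox plus and 5.17 in Dox minus. Tet1 was not measured, with values between 3.38 and 4.03. In both pairs, then, Dnmt1 stood higher and Tet2 lower in GFPlow and in Dox plus.

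Mbd3 and Mbd2, alternative subunits of the nucleosome remodelling and deacetylase complex NuRD, had unlike differences. Mbd3 read 7.55 in GFPlow and 6.25 in GFPhigh, a difference of 1.30 (2.46-fold). It read 8.18 in Dox plus against 6.82 in Dox minus, which differ by 1.36 (2.57-fold). Mbd3 has 1 probe set on the array, and a loess correction brought its GFP difference to 0.998, just within 2-fold. Mbd2, which binds methylated CpG, read 11.70 in both sorted fractions and 11.84 in both crypt samples, and its second probe set differed by -0.25 and 0.09. The NuRD ATPase gene Chd4 differed by 0.43 and 0.14, and its metastasis-associated subunits Mta1, Mta2 and Mta3 by 0.59, -0.72 and 0.29 in the GFP pair and by 0.55, 0.49 and -0.13 in the Dox pair.

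**Figure D2:**
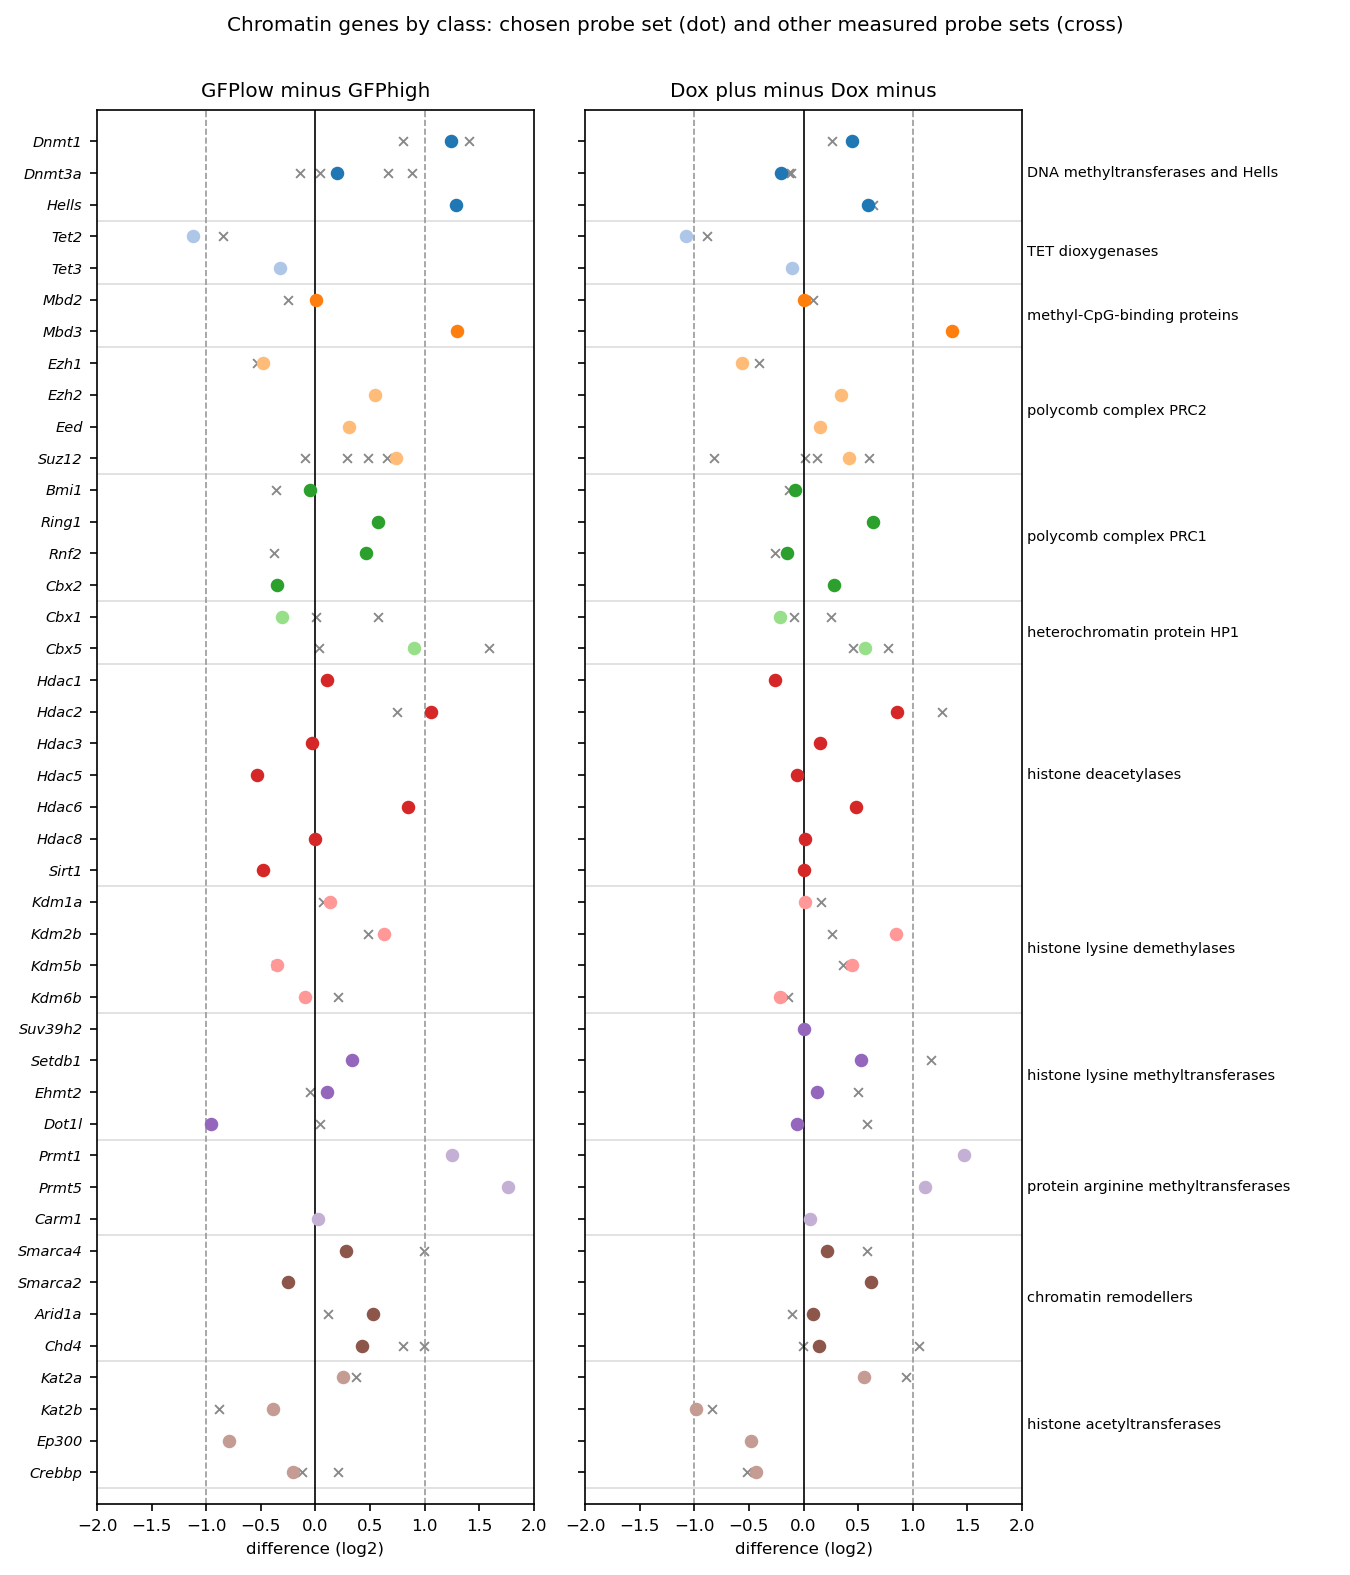
Log2 difference (x axis) of each of the 43 members measured in at least 1 pair (y axis, by class), GFPlow minus GFPhigh on the left and Dox plus minus Dox minus on the right. Dots are the chosen probe set, crosses other measured probe sets, and dashed lines mark 2-fold. The arginine methyltransferases Prmt1 and Prmt5 lie right of the 2-fold line in both panels, and Tet2 left of it.

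Among the 12 member classes, the largest difference in each pair was in an arginine methyltransferase. Prmt5, the main enzyme of symmetric arginine dimethylation, which also acts on splicing proteins, read 10.05 in GFPlow and 8.29 in GFPhigh. The difference of 1.76 (3.39-fold) was the largest of any member in the GFP pair. It read 9.75 in Dox plus against 8.63 in Dox minus, which differ by 1.11 (2.16-fold). Prmt1, the main enzyme of asymmetric dimethylation, read 10.68 in GFPlow and 9.44 in GFPhigh, a difference of 1.25. It read 11.59 in Dox plus against 10.11 in Dox minus, and the difference of 1.48 (2.78-fold) was the largest of any member in the Dox pair. Carm1, a coactivator methyltransferase, differed by 0.02 and 0.06, so the class did not differ as a whole.

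Further genes of the family, from outside the list of 48, were higher in GFPlow and in Dox plus for 3 of the 4 measured. That is 75.0% in each pair, against 53.2% and 55.0% of all genes. Prmt7 read 8.74 in GFPlow and 7.73 in GFPhigh, a difference of 1.01, and 9.23 in Dox plus against 7.63 in Dox minus, which differ by 1.60. Prmt3, which methylates a small-subunit ribosomal protein, differed by 0.77 in the GFP pair and read 9.96 in Dox plus against 7.88 in Dox minus, which differ by 2.08 (4.22-fold). Prmt2 lay the other way, at -0.55 and -0.57. Over the 7 arginine methyltransferases measured, 3 were past 2-fold higher in GFPlow (42.9%, against 8.81% of all genes). In Dox plus 4 were past 2-fold higher (57.1%, against 6.93%). In either pair 0 were 2-fold lower, against 4.3% of all genes in GFPlow and 5.35% in Dox plus. The medians were 0.77 and 1.11. Prmt1, Prmt5 and Carm1 each rest on 1 probe set whose suffix marks possible matches to several transcripts.

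Polycomb members differed by less than 2-fold, except that Cbx2 is known only as a bound in the Dox pair. Within PRC2, Suz12, a core subunit needed for activity, read 9.76 in GFPlow and 9.02 in GFPhigh, a difference of 0.74. It read 10.32 in Dox plus against 9.91 in Dox minus, which differ by 0.42, while its 5 measured probe sets ran from -0.09 to 0.74 in the GFP pair and from -0.82 to 0.60 in the Dox pair. The catalytic subunit Ezh2 differed by 0.55 and 0.35 and the histone-binding subunit Eed by 0.31 and 0.15. Ezh1, the alternative catalytic subunit associated with resting cells, read 8.90 in GFPlow and 9.38 in GFPhigh, a difference of -0.48, and 8.50 in Dox plus against 9.06 in Dox minus, which differ by -0.57. The catalytic subunits therefore had opposite signs in each pair, and both measured probe sets of Ezh1 were lower in GFPlow and in Dox plus.

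Within PRC1, the ubiquitin ligase gene Ring1 read 7.59 in GFPlow and 7.01 in GFPhigh, a difference of 0.58, and 7.04 in Dox plus against 6.41 in Dox minus, which differ by 0.63. Its paralogue Rnf2 differed by 0.47 and -0.15, with a second probe set at -0.38 and -0.26. Bmi1, the subunit often used as a marker of reserve intestinal stem cells, differed by -0.05 and -0.08. The chromodomain genes were weakly measured: Cbx2 read 5.01 in GFPlow and 5.37 in GFPhigh, and 5.28 in Dox plus while Dox minus lay at 4.13, under the limit, so its difference of at least 0.28 is a bound (1.14 with no limit on low values). Cbx7 had no value above 4.42. Of the listed PRC2 and PRC1 partners, 6 and 12 were measured in the GFP pair, with none past 2-fold. Of all genes 8.81% were 2-fold higher there and 4.3% lower. In the Dox pair 6 and 11 were measured, and those past 2-fold were Phf1 (-1.51) and Pcgf2 (1.19). Of all genes 6.93% were 2-fold higher there and 5.35% lower.

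Of the HP1 genes, whose products bind methylated histone H3 in heterochromatin, Cbx5 had the same sign in all its measured probe sets. It read 9.80 in GFPlow and 8.91 in GFPhigh, a difference of 0.90, and 9.73 in Dox plus against 9.17 in Dox minus, which differ by 0.56. Its other probe sets gave at least 1.59 and 0.03 in the GFP pair and 0.77 and 0.45 in the Dox pair. Cbx1 differed by -0.31 and -0.22, but its 3 probe sets ranged from -0.31 to 0.57 and from -0.22 to 0.25, so its sign was not settled. The only probe set annotated to Cbx3 alone read 1.17 to 1.30 and was not measured, and probe sets that Cbx3 shares with a pseudogene were not used.

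Among histone deacetylases Hdac2 stood apart from Hdac1, its partner in the same complexes. Hdac2 read 10.83 in GFPlow and 9.77 in GFPhigh, a difference of 1.06. It read 11.47 in Dox plus against 10.61 in Dox minus, which differ by 0.86, and its second probe set gave 0.74 and 1.27. The 2-fold line therefore fell between its probe sets in each pair, and all 4 differences were positive. Hdac1 differed by 0.11 and -0.27. The cytoplasmic tubulin deacetylase Hdac6 differed by 0.85 and 0.48, the signal-responsive Hdac5 by -0.54 and -0.06, Hdac3 by -0.03 and 0.15, Hdac8 by -0.01 and 0.01, and the NAD-dependent Sirt1 by -0.48 and 0.00. Of the other deacetylases, Hdac10 (1.03) and Sirt6 (1.02) were past 2-fold in the GFP pair (25.0% of 8, against 8.81% of all genes higher). Neither was measured in the Dox pair.

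Lysine methyltransferases and demethylases were mostly within 1.5-fold. Dot1l, which methylates the core of histone H3 in transcribed genes, read 8.02 in GFPlow and 8.98 in GFPhigh, a difference of -0.96, and 8.11 in Dox plus and 8.17 in Dox minus. Its second probe set gave 0.04 and 0.58, so the lower value in GFPlow rests on 1 probe set, and it passed 2-fold under 3 other normalizations (-1.002 to -1.10). Setdb1, a methyltransferase that silences retroelements, read 7.90 in GFPlow and 7.57 in GFPhigh, and 8.64 in Dox plus against 8.12 in Dox minus, which differ by 0.52. A second probe set of Setdb1, measured in the Dox pair only, gave 1.17. Ehmt2 differed by 0.10 and 0.12, and Suv39h2 was at the limit, reading 5.01 in Dox plus and under 5 on the other arrays. Smyd2, a methyltransferase of histones and other proteins outside the list, read 10.44 in GFPlow and 8.79 in GFPhigh, a difference of 1.65, and 10.78 in Dox plus against 9.76 in Dox minus, which differ by 1.02. It was the only 1 past 2-fold of 22 lysine methyltransferases measured in the GFP pair (4.55% higher, against 8.81% of all genes). The same held for the 23 measured in the Dox pair (4.35%, against 6.93%). None was 2-fold lower, against 4.3% and 5.35% of all genes. The family thus had a smaller share past 2-fold than the array.

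Kdm2b, a demethylase that also brings a PRC1 variant to CpG islands, read 9.90 in GFPlow and 9.28 in GFPhigh, a difference of 0.63, and 10.61 in Dox plus against 9.77 in Dox minus, which differ by 0.85. Its second probe set gave 0.48 and 0.26. Kdm5b, a demethylase of active promoters, differed by -0.36 in the GFP and 0.45 in the Dox pair, with the same signs in its second probe set (-0.36 and 0.36). Kdm1a differed by 0.13 and 0.02 and Kdm6b by -0.09 and -0.22. Over all 15 lysine demethylases measured, listed and partner genes together, 12 had lower values in GFPlow (80.0%, against 46.8% of all genes), with a median of -0.26. In Dox plus 9 had lower values (60.0%, against 44.96% of all genes), with a median of -0.13. Among them Kdm4b (-1.08) was past 2-fold in the GFP pair (6.67% of 15, against 4.3% of all genes lower).

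Of 4 histone acetyltransferases, 3 (75.0%) had lower values in GFPlow and in Dox plus, against 46.8% and 44.96% of all genes. Ep300, the general coactivator p300, read 9.92 in GFPlow and 10.72 in GFPhigh, a difference of -0.79, and 10.09 in Dox plus against 10.58 in Dox minus, which differ by -0.48. Kat2b, the p300-associated acetyltransferase, read 10.53 in GFPlow and 10.92 in GFPhigh, a difference of -0.39. It read 10.25 in Dox plus against 11.23 in Dox minus, which differ by -0.98 (1.98-fold), and its second probe set gave -0.89, a bound, in the GFP and -0.84 in the Dox pair. Crebbp, the paralogue of Ep300, differed by -0.21 and -0.44. Kat2a, the paralogue of Kat2b, lay the other way at 0.25 and 0.55, and a second probe set gave 0.37 and 0.94. So the 2 paralogues of the Kat2 pair had opposite signs in each pair of arrays. Of 10 other acetyltransferase genes, Tada2a (1.18) and Ncoa3 (-1.28) were past 2-fold, both in the Dox pair. That is 10.0% in each direction, against 6.93% of all genes higher and 5.35% lower. Over all 14 measured, listed and partner genes together, 7 had lower values in GFPlow and 7 in Dox plus. The medians were 0.04 and 0.03, so the family as a whole had no common direction.

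The 4 remodeller members differed by less than 2-fold in both pairs. Arid1a, a DNA-binding subunit of the BAF complex, read 10.75 in GFPlow and 10.22 in GFPhigh, a difference of 0.53, and 10.37 in Dox plus and 10.29 in Dox minus. The BAF ATPase Smarca4 differed by 0.28 and 0.21. Its alternative, Smarca2, read 8.91 in GFPlow and 9.16 in GFPhigh, a difference of -0.25, and 9.51 in Dox plus against 8.89 in Dox minus, which differ by 0.62. Second probe sets gave 0.99 and 0.58 for Smarca4 and 0.11 and -0.10 for Arid1a. The 2 other probe sets of Chd4 gave 0.80 and 0.996 in the GFP pair and 0.00 and 1.06 in the Dox pair. Of 22 remodeller genes measured, partners included, 15 (68.2%) had higher values in GFPlow and 19 (86.4%) in Dox plus, against 53.2% and 55.0% of all genes. Those past 2-fold were the BAF subunit Actl6a (1.02) in the GFP pair and Smarcc1 (1.39) and Chd7 (1.19) in the Dox pair. They were 4.55% and 9.09% of the 22, against 8.81% and 6.93% of all genes higher.

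Of 6 histone chaperones measured, which place histones on DNA, 2 were past 2-fold higher in GFPlow (33.3%, against 8.81% of all genes). All 6 had differences above 0, from 0.09 for Daxx upward, with a median of 0.77. Asf1b read 7.33 in GFPlow and under 5 in GFPhigh, a difference of at least 2.33, and Chaf1b, a subunit of the replication-coupled assembly factor, 6.97 in GFPlow and under 5 in GFPhigh, at least 1.97. In the Dox pair Asf1b differed by 0.46, Chaf1b by at least 0.87 and the FACT subunit Supt16 by 1.05 (2.07-fold), with a median of 0.57 over 6. Over all companion genes, 8 of 108 (7.41%) measured in the GFP pair were at least 2-fold higher, against 8.81% of all genes, and 1 (0.926%) lower, against 4.3%. Of 105 in the Dox pair, 8 (7.62%) were higher, against 6.93%, and 2 (1.90%) lower, against 5.35%. The shares of higher companions lay near those of the array.

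**Figure D3:**
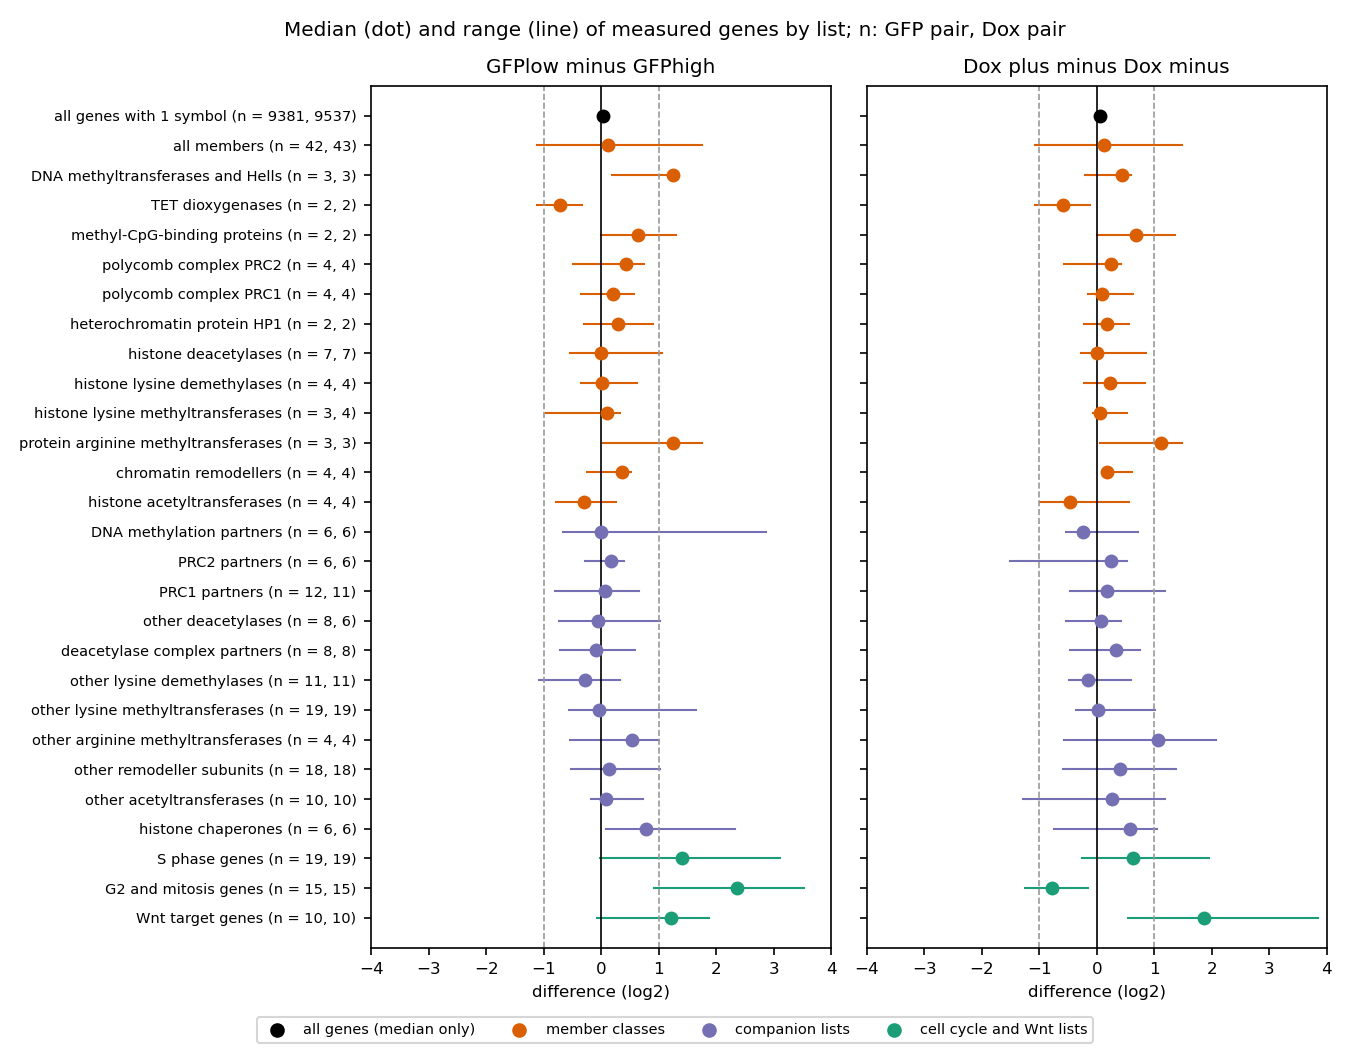
Median (dot) and range (line) of the log2 difference (x axis) for the member classes, the companion lists and the cell cycle and Wnt lists (y axis, with the number measured in each pair), and the median alone of all measured genes, GFPlow minus GFPhigh on the left and Dox plus minus Dox minus on the right. G2 and mitosis genes have a median of 2.37 in the left panel and -0.77 in the right, while the arginine methyltransferase members have 1.25 and 1.11.

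Cell cycle and cell type genes also differed within the pairs, not always with the same sign in both, and their part in the results was not tested. In the GFP pair 13 of 19 S phase genes passed 2-fold higher in GFPlow (median 1.41), against 8.81% of all genes. So did 14 of 15 G2 and mitosis genes, with a median of 2.37. In the Dox pair S phase genes had a median of 0.63, with 4 of 19 past 2-fold higher (21.1%, against 6.93% of all genes). All 15 G2 and mitosis genes were lower there, against 44.96% of all genes, with a median of -0.77. Of 43 members measured in the Dox pair, 29 (67.4%) had higher values in Dox plus, against 55.0% of all genes. Dnmt1, Hells, Ezh2 and Suz12 were among them, and the partner gene Uhrf1 was also higher. A link of these genes to the S phase genes was not tested. Wnt target genes had medians of 1.21 and 1.87. In each pair 7 of 10 were at least 2-fold higher, against 8.81% and 6.93% of all genes. Myc was among them, at 1.46 in the GFP and 2.88 in the Dox pair.

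Levels of epithelial cell type markers also differed between arrays. Over 10 goblet cell markers the mean log2 level was 13.37 in GFPlow and 12.07 in GFPhigh, and 12.40 in Dox plus and 12.96 in Dox minus. Over 10 absorptive colonocyte markers it was 13.12 in GFPlow and 13.87 in GFPhigh, and 12.93 in Dox plus and 13.31 in Dox minus. Enteroendocrine markers averaged 7.66 in GFPlow and 8.32 in GFPhigh, and 7.74 in Dox plus and 9.77 in Dox minus, with 9 of 10 at least 2-fold lower in Dox plus. Among other cells, the mean over 9 myeloid markers was 6.08 in GFPlow and 5.99 in GFPhigh, and 6.06 in Dox plus and 6.23 in Dox minus. That over 8 fibroblast markers was 5.15 in GFPlow and 5.16 in GFPhigh, and 5.21 in Dox plus and 5.47 in Dox minus. In all these means, values under 5 were set to 5. Only 1 to 2 of the 8 fibroblast markers reached 5 on any array, so their mean mostly gives the limit. Single markers differed by more in the Dox pair. The plasma cell gene Jchain lay under 5 in Dox plus and at 7.53 in Dox minus, lower by at least 2.53 on the log2 scale. The mesenchymal gene Vim lay at 6.64 in Dox plus against 8.43 in Dox minus, and the leukocyte gene Laptm5 6.05 in Dox plus and 7.58 in Dox minus. Their part in the chromatin gene differences was not tested.

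Of 42 members measured in both pairs, 22 (52.4%) had higher values in GFPlow and in Dox plus, 11 (26.2%) had lower values in both, and 9 (21.4%) had opposite signs. Over all 9023 genes measured in both these shares were 37.4%, 28.6% and 33.9%. Pearson's r between the 2 differences was 0.78 and Spearman's rho 0.74 over these genes, against 0.29 and 0.39 over 9023 genes. Without the 4 members past 2-fold in both pairs r was 0.65. The pairs share no array but share the platform, its probe sets and the summary method, and genes are not independent replicates, so these values describe the arrays only. Prmt1, Prmt5 and Mbd3 were among 183 genes (2.03%) at least 2-fold higher in both pairs, and Tet2 among 72 (0.798%) at least 2-fold lower in both. Apart from Cbx2, the members with opposite signs differed by at most 0.62 in either pair, and Smarca2 and Kdm5b had the widest gaps among these. Cbx2 differed by -0.35 in the GFP pair and by at least 0.28 in the Dox pair, a bound (1.14 with no limit on low values).

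**Figure D4:**
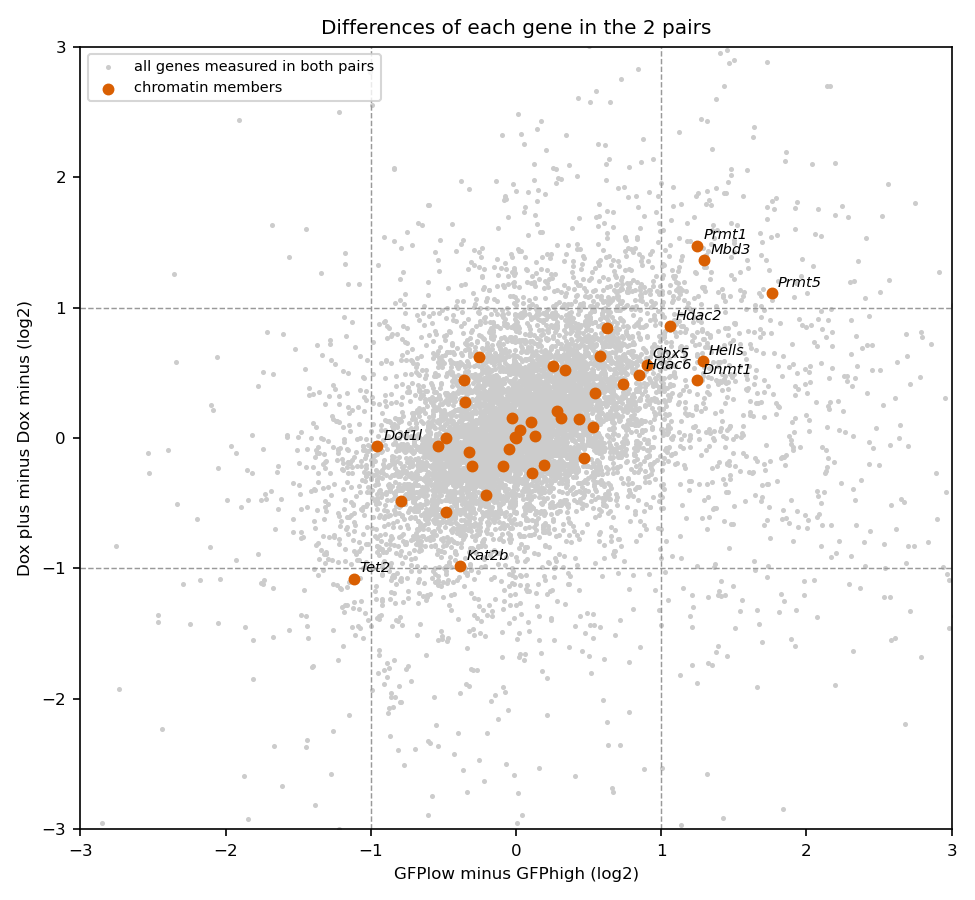
Log2 difference GFPlow minus GFPhigh (x axis) against Dox plus minus Dox minus (y axis) of the 42 members measured in both pairs (orange) and of all genes measured in both (grey). Axes end at 3 either way, which leaves out 67 genes, and dashed lines mark 2-fold. Prmt1, Prmt5 and Mbd3 lie in the upper right corner and Tet2 in the lower left, while Dnmt1, Hells and Hdac2 lie past 2-fold on the x axis only.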

How the data were processed

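The authors deposited log2 expression values per probe set (45101) and array, summarised by GCRMA, a method with a sequence-modelled background that the submitters' processing notes name. The sources used here give no version and do not say whether the 4 arrays were summarised jointly. Values from 0.47 to 16.27 show the log2 scale. Low values depend on that background model, hence the limit of 5. Probe sets with 1 symbol (34958) were named from the platform annotation; those with several (932) or none (9211) were not used. Each gene took its highest-mean probe set over the 4 arrays. Differences are GFPlow minus GFPhigh and Dox plus minus Dox minus. With 1 array per group no test was run, and this small number of arrays bounds the precision. All 48 members are named; those past 2-fold, or with the largest difference of their class in a pair, are given with 4 array values, companion genes where past 2-fold, and others as examples. Members, lists, limits and alternatives were chosen with earlier results of these data known. Calculations used Python 3.11.15, numpy 2.4.6 and pandas 2.3.3, and were tested on simulated arrays. Promoters of 42 members came from RefSeq (GRCm38.p6).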

Additional observations from a re-analysis of the deposited data

How the results depend on the processing

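The alternatives were limits of 4 and 6, no limit, quantile normalization, loess correction (span 0.4), centring on the median, the mean of probe sets, dropping the suffixed probe sets (_x_at, _s_at, _a_at), choosing the probe set by the pair's own mean, and a 1.5-fold threshold. Of 11 member differences past 2-fold (7 genes), none changed sign under any of the first 9, and 88 of the 94 recomputed values stayed past 2-fold. The exceptions were Hdac2 in the GFP pair (0.74 to 0.99 under 3 settings), Mbd3 in the GFP pair under loess (0.998) and Tet2 with the mean of probe sets (-0.98 in each pair). The 7 genes read above 6 on all 4 arrays, the lowest being Mbd3 at 6.25 in GFPhigh. Limits of 4 or 6, or none, therefore could not change them. Mbd3, Prmt1 and Prmt5 have 1 probe set each, so the mean of probe sets could not change theirs. Many of the 94 values were thus fixed in advance, and the 88 is no measure of stability.

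Members at least 2-fold lower numbered 1 in each pair. In the GFP pair they became 2 with quantile normalization, loess or centring (Dot1l at -1.002 to -1.10) and 0 with the mean of probe sets. In the Dox pair they became 2 with quantile normalization or centring (Kat2b at -1.01 and -1.02) and 0 with the mean of probe sets. Members at least 2-fold higher in GFPlow were 2 of 33 (background 8.74%), against 6 of 42 (8.81%), without the suffixed probe sets, which removes those of Dnmt1, Prmt1 and Prmt5, so the members' share was then under the background. Members at least 2-fold higher in Dox plus were 3 or 4 at the 2-fold threshold: Hdac2 passed under 3 settings (1.07 to 1.27), Cbx2 with a limit of 4 or none (1.14), and Setdb1 (1.17) and Chd4 (1.06) without suffixed probe sets, where 4 of 35 stood against 7.48%. A 1.5-fold threshold gave 10 higher and 3 lower in the GFP pair (background 18.4% and 12.6%), and 8 and 2 in the Dox pair (17.4% and 11.7%). Loess changed the split over all genes in the GFP pair from 826 higher and 403 lower to 673 and 543. Median member differences ranged from 0.05 to 0.16 in the GFP pair and from 0.05 to 0.15 in the Dox pair. The cause of these shifts was not tested. No paired analysis was possible because each group was 1 array.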

Other observations

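Probe sets of 1 gene did not always place the sorted cells and the crypts alike. For 4 of 25 members with several measured probe sets (16.0%, against 13.9% of 4443 genes), the mean of the GFP arrays minus the mean of the Dox arrays spanned 3 or more between probe sets. In Crebbp 1 probe set read 10.13 in GFPlow and 9.93 in GFPhigh, but 3.53 in Dox plus against 2.52 in Dox minus, a gap of 7.00, while the lowest gap of the gene was 0.00. In Chd4 the gaps ran from 0.93 to 4.91. In Setdb1 they ran from -4.25 to -0.64, so there the sorted cells read lower. Dnmt3a was the fourth such gene, with gaps from -0.16 to 3.30. Levels of these genes were therefore compared only within a pair.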
